A study of Bos taurus with 50 samples.

Results

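SLC5A1 (ENSBTAG00000012851) and SLC23A1 (ENSBTAG00000010798) are sodium-coupled transporters, the first for glucose and galactose and the second for ascorbate. These 2 of the 18830 genes counted in bovine endometrium were chosen by their read counts in earlier results of these same data, so their levels and fold changes are given here as a description, with no test. Endometrial biopsies of lactating Holstein x Jersey cows were sequenced at weeks 5 and 9 after calving, on the side of the corpus luteum or largest follicle, giving 50 libraries named here by the number in their label. CycW5 cows had a corpus luteum and circulating progesterone (P4) at week 5 (10 libraries at week 5 and 10 at week 9). NoCycW5 cows had no corpus luteum and no measurable P4 up to week 5 (12 and 11 libraries). CycNoP4 cows had resumed cycling but were not under P4 at the week 5 biopsy (4 and 3 libraries), and the study left them out of its analysis. Every cow was synchronized before week 9 with GnRH, a P4 insert and PGF2α, timed to place the week 9 biopsy in the luteal phase in all groups. The week therefore cannot be told apart from that treatment. The labels do not say which libraries came from the same cow, so weeks were set against each other without pairing, and P-values describe the spread between libraries.

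SLC5A1, known as SGLT1, moves glucose into epithelial cells against its gradient together with sodium. SLC23A1, known as SVCT1, does the same for the reduced form of vitamin C. Both sit in the apical membrane of absorptive epithelia such as gut and kidney tubule, and both are driven by the sodium gradient that the sodium pump keeps up at the basolateral side. In the uterus, glucose and ascorbate are components of the luminal fluid that surrounds the conceptus before implantation, and the epithelium lining the lumen and the glands separates that fluid from the maternal blood.

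Total reads counted on genes were 21592867 to 32813237 per library (median 28126022.5). SLC5A1 was covered by 14 to 92 reads in the NoCycW5 libraries of week 5 and by 66 to 2833 reads in those of week 9, and SLC23A1 by 100 to 294 and 155 to 1907 reads. Levels are CPM, read counts scaled to a common library size, after TMM normalization over all libraries. They compare a gene between libraries, and they do not compare the genes with each other, because transcript lengths were not used. A biopsy holds several cell types, so fewer cells that express a gene and less RNA of that gene per cell cannot be told apart.

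At week 5, SLC5A1 in the NoCycW5 cows was 0.465 CPM at the lowest, 0.825 at the median and 3.09 at the highest of 12 libraries. In the CycW5 cows it was 1.19 CPM at the lowest, 9.12 at the median and 72.2 at the highest of 10 libraries. Of the CycW5 libraries, 8 lay above the highest NoCycW5 library, and libraries 57 (1.19 CPM) and 59 (3.01 CPM) fell within the NoCycW5 range. The CycW5 libraries were themselves spread widely, with a 60.9-fold span from lowest to highest against 6.64-fold in the NoCycW5 cows. The fitted difference was 17.3-fold (log2 4.11 ± 0.63 SE), and it was log2 3.56 without library 70, the highest of the CycW5 libraries. It was log2 3.41 in limma-voom, and 3.11 when libraries were weighted by quality.

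SLC23A1 showed a narrower spread within these groups. It was 4.04 CPM at the lowest, 5.35 at the median and 9.88 at the highest of the 12 NoCycW5 libraries. In the 10 CycW5 libraries it was 8.66 CPM at the lowest, 44.4 at the median and 59.5 at the highest. Library 57 was the only CycW5 library inside the NoCycW5 range, and the other 9 stood above it. The fitted difference was 6.55-fold (log2 2.71 ± 0.34 SE), and its span within the CycW5 cows was 6.87-fold. Both differences belong to a comparison in which 4119 of 15483 genes, 26.6%, were called at a Benjamini-Hochberg adjusted (BH) P of 0.05 or less, with 15.2% higher and 11.4% lower in the CycW5 cows. SLC5A1 ranked 77 and SLC23A1 ranked 197 among the 15483 log2 fold changes, counted from the highest.

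In the CycNoP4 cows, biopsied at week 5 when P4 had fallen from a high level the week before, both genes lay in or near the NoCycW5 range. SLC5A1 was 4.97 CPM in library 51, 2.51 in library 56, 0.0377 in library 58 and 0.439 in library 64. Library 58 held 1 SLC5A1 read, for which counting error alone allows 0.000955 to 0.21 CPM (exact 95% Poisson interval), and it was the lowest of the 50 libraries. Library 51 was above all NoCycW5 libraries and libraries 58 and 64 were below all of them. For SLC23A1, the CycNoP4 libraries had 9.36 CPM (library 51), 9.85 (library 56), 3.20 (library 58) and 7.17 (library 64). None lay above the highest NoCycW5 library, and library 58 was again the lowest of the series.

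Fitted over the week 5 libraries, SLC5A1 in the CycNoP4 cows was 1.85 times the NoCycW5 level (log2 0.89 ± 0.78 SE) and SLC23A1 was 1.24 times that level (log2 0.31 ± 0.34 SE). The SLC5A1 value changed sign without library 51 (log2 -0.09) and in limma-voom (log2 -0.27, or -0.55 when libraries were weighted by quality). Against the CycW5 cows, SLC5A1 was 0.107 times as high (log2 -3.23 ± 0.97 SE) and SLC23A1 was 0.188 times as high (log2 -2.41 ± 0.41 SE). The SLC5A1 value ranged from log2 -4.20 without library 51 to -2.69 without library 70. In the same fit, 14.7% of 15738 genes were called between the CycNoP4 and NoCycW5 cows (8.87% higher and 5.86% lower) and 17.7% between the CycNoP4 and CycW5 cows (8.70% higher and 9.00% lower). These counts rest on few libraries. The 2319 calls against NoCycW5 cows became 132 without library 51 and 4981 without library 64, and the 2786 calls against CycW5 cows became 1451 and 4364.

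**Figure D1:**
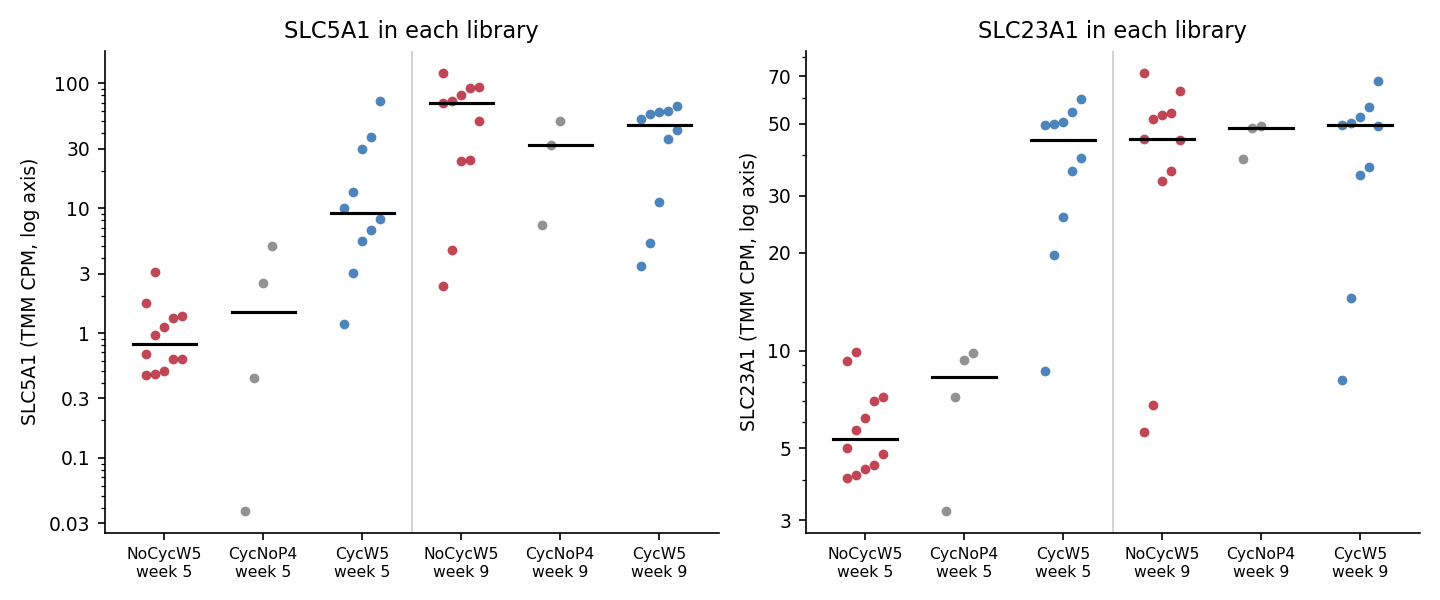
SLC5A1 (left) and SLC23A1 (right) in TMM CPM on log axes, with a point for each of the 50 libraries and a black line at the median of each of the 6 groups; the grey line divides week 5 from week 9. At week 5, 8 of 10 CycW5 libraries for SLC5A1 and 9 of 10 for SLC23A1 lie above all NoCycW5 libraries. At week 9 a few libraries of the NoCycW5 and CycW5 groups lie at low levels.

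At week 9, after synchronization, all groups held libraries with high levels. SLC5A1 in the NoCycW5 cows was 2.39 CPM at the lowest, 69.5 at the median and 122 at the highest of 11 libraries. In the CycW5 cows it was 3.42 CPM at the lowest, 46.8 at the median and 66.0 at the highest of 10 libraries. The 3 CycNoP4 libraries had 50.05 CPM (library 79), 31.8 (library 88) and 7.35 (library 94). No CycW5 library lay above the NoCycW5 range or above the NoCycW5 median. The fitted CycW5 to NoCycW5 ratio was 0.685 (log2 -0.55 ± 0.56 SE).

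SLC23A1 at week 9 was 5.62 CPM at the lowest, 44.8 at the median and 71.8 at the highest of the 11 NoCycW5 libraries. In the CycW5 libraries the values were 8.09, 49.4 and 67.5 CPM. The CycNoP4 libraries had 49.4 CPM (library 79), 38.9 (library 88) and 48.6 (library 94), close to each other although SLC5A1 in library 94 was 6.81-fold below library 79. The fitted log2 difference between CycW5 and NoCycW5 cows was -0.00024 ± 0.33 SE. In this comparison 1 gene, 0.00646% of 15483, was called, and 992 had an unadjusted P under 0.05.

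From week 5 to week 9 in the NoCycW5 cows, SLC5A1 was 53.0-fold higher (log2 5.73 ± 0.66 SE) and SLC23A1 was 7.04-fold higher (log2 2.82 ± 0.34 SE). Of the 11 week 9 libraries, 10 for SLC5A1 and 9 for SLC23A1 lay above all 12 week 5 libraries. In this comparison 35.7% of 15483 genes were called, 19.4% higher and 16.3% lower at week 9. The 5533 calls became 8562 in limma-voom with library quality weights. SLC5A1 had the rank 20 log2 fold change from the highest, and SLC23A1 the rank 197. The week 5 NoCycW5 libraries also form the reference of the week 5 comparison above, so the fold changes of these comparisons are not independent of each other.

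In the CycW5 cows, which had P4 at week 5 and were synchronized before week 9, SLC23A1 differed little between weeks (1.07-fold, log2 0.10 ± 0.34 SE). SLC5A1 was 2.10-fold higher at week 9 (log2 1.07 ± 0.58 SE), and its median was 5.13-fold higher. All 10 week 9 libraries lay within the range of the week 5 libraries for SLC5A1, and 8 of them lay above the week 5 median. The SLC5A1 value depended on the fit, from log2 1.06 with no filter on low counts to log2 2.25 in limma-voom with library quality weights. Between weeks in these cows 7 genes, 0.0452% of 15483, were called, with 2204 at an unadjusted P under 0.05, and limma-voom with library quality weights called 3181.

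By the median, SLC5A1 had the order NoCycW5 week 5, CycNoP4 week 5, CycW5 week 5, CycNoP4 week 9, CycW5 week 9 and NoCycW5 week 9, and each neighbor in that order overlapped the next. SLC23A1 had the order NoCycW5 week 5 (5.35 CPM), CycNoP4 week 5 (8.27), CycW5 week 5 (44.4), NoCycW5 week 9 (44.8), CycNoP4 week 9 (48.6) and CycW5 week 9 (49.4). Its 4 highest medians thus lay within a few CPM of each other, and the step in the order fell between the CycNoP4 and CycW5 cows of week 5, whose ranges met only through library 57. The shape of the values differed between the genes. Only 3 of 50 libraries had SLC23A1 between 10 and 30 CPM, with 20 libraries below and 27 above, while 6 libraries had SLC5A1 in that range, with 26 below and 18 above (bounds chosen after the values were seen). The fitted biological coefficient of variation around the group means was 85.7% for SLC5A1 and 52.1% for SLC23A1, against a median of 24.8% over 15483 genes.

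Outside the NoCycW5 and CycNoP4 groups of week 5, 4 libraries had both genes under 10 CPM, a bound chosen after the values were seen. They were library 57 (CycW5, week 5), libraries 76 and 91 (NoCycW5, week 9) and library 87 (CycW5, week 9), and the labels do not say whether any of them came from the same cow. Their SLC5A1 was 1.19, 2.39, 4.63 and 3.42 CPM and their SLC23A1 was 8.66, 5.62, 6.78 and 8.09 CPM, in that order of libraries. The oxytocin receptor gene OXTR and the estrogen receptor gene ESR1 were looked up in these libraries after the values were seen. OXTR was 151 CPM in library 57, 93.4 in library 76, 162 in library 91 and 178 in library 87, which is within the 80.2 to 222 CPM of the NoCycW5 libraries of week 5. ESR1 in the same libraries was 146, 103, 113 and 111 CPM. Library 89 (CycW5, week 9) came next, with SLC5A1 at 5.23 CPM, SLC23A1 at 14.5 CPM and OXTR at 7.40 CPM, and library 72 (CycW5, week 9) had OXTR at 111 CPM with the highest SLC23A1 of its group (67.5 CPM) and SLC5A1 at 11.2 CPM. At week 9, libraries 80 (NoCycW5) and 83 (CycW5) also held OXTR at 81.5 and 69.1 CPM, beside SLC5A1 at 24.4 and 60.5 CPM and SLC23A1 at 44.6 and 36.8 CPM. Over 50 libraries r with OXTR was -0.75 for SLC5A1 and -0.75 for SLC23A1, and -0.50 and -0.52 after the 6 group means were subtracted, as a description. Without libraries 57, 76, 87 and 91, which were singled out on these same levels, the log2 fold changes of the week 5 comparison were 4.27 for SLC5A1 and 2.85 for SLC23A1, and those between weeks in NoCycW5 cows were 6.01 and 3.07.

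**Figure D2:**
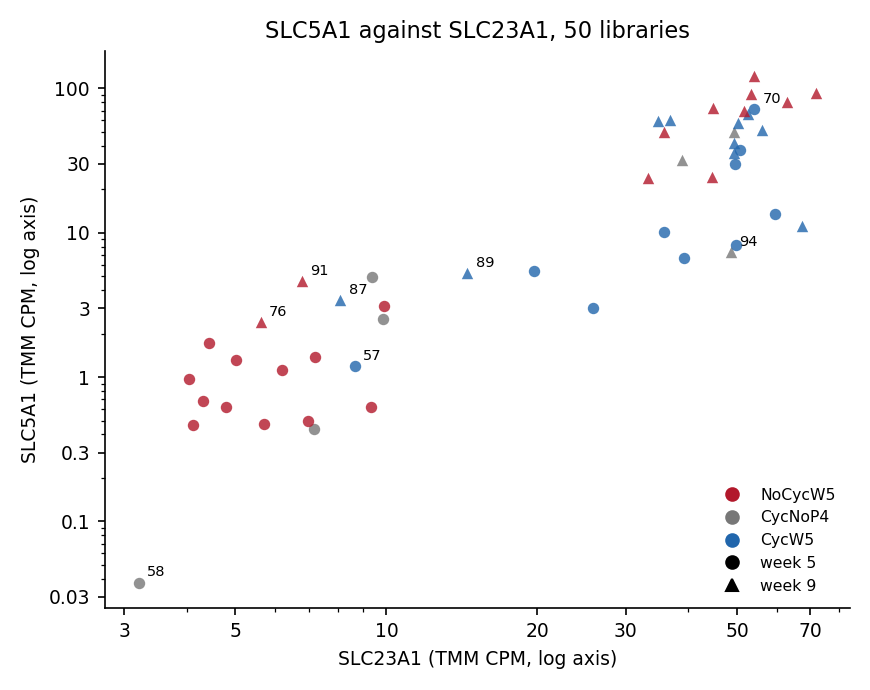
SLC5A1 against SLC23A1 in TMM CPM on log axes, with a point for each of the 50 libraries; color gives the group, circles week 5 and triangles week 9, and numbers name single libraries. Both genes are low in the NoCycW5 libraries of week 5 and high in most of those of week 9, while libraries with SLC23A1 above 30 CPM differ widely in SLC5A1, as in library 94 (7.35 CPM) and library 70 (72.2 CPM).

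The genes varied together across libraries. Pearson's r of log2 CPM between SLC5A1 and SLC23A1 was 0.90 over 50 libraries, and 0.80 after the 6 group means were subtracted. It was 0.96 within the 11 NoCycW5 libraries of week 9, 0.82 within the 10 CycW5 libraries of week 5, 0.76 within the 10 CycW5 libraries of week 9 and 0.31 within the 12 NoCycW5 libraries of week 5, where both genes were low. Without libraries 57, 76, 87 and 91 the r of the deviations was 0.63 over 46 libraries. These values are descriptions over libraries that share depth and cell makeup between the genes.

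The proportion of SLC5A1 to SLC23A1 reads is given here as a description, since both genes were chosen on these counts. The number of SLC5A1 reads per SLC23A1 read, which does not depend on scaling between libraries, had a median of 0.169 (0.0667 to 0.392) in the 12 NoCycW5 libraries of week 5. In the 11 NoCycW5 libraries of week 9 the median was 1.29 (0.426 to 2.26), and no library of either week overlapped the other week. The gap was narrow (0.392 to 0.426), and the week 5 ratios rest on 14 to 92 SLC5A1 reads. How many other gene pairs separate the weeks as fully was not examined, so the separation is not particular to this pair. This held also for libraries 76 (0.426) and 91 (0.683), in which both genes were under 10 CPM. In the CycW5 cows the median ratio was 0.252 (0.116 to 1.33) at week 5 and 0.884 (0.166 to 1.70) at week 9, and the weeks overlapped. The CycNoP4 libraries had ratios of 0.530, 0.255, 0.0118 and 0.0613 at week 5 (libraries 51, 56, 58 and 64) and of 1.01, 0.819 and 0.151 at week 9 (libraries 79, 88 and 94). The ratio compares libraries and is not a ratio of transcript numbers, since longer transcripts give more reads.

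**Figure D3:**
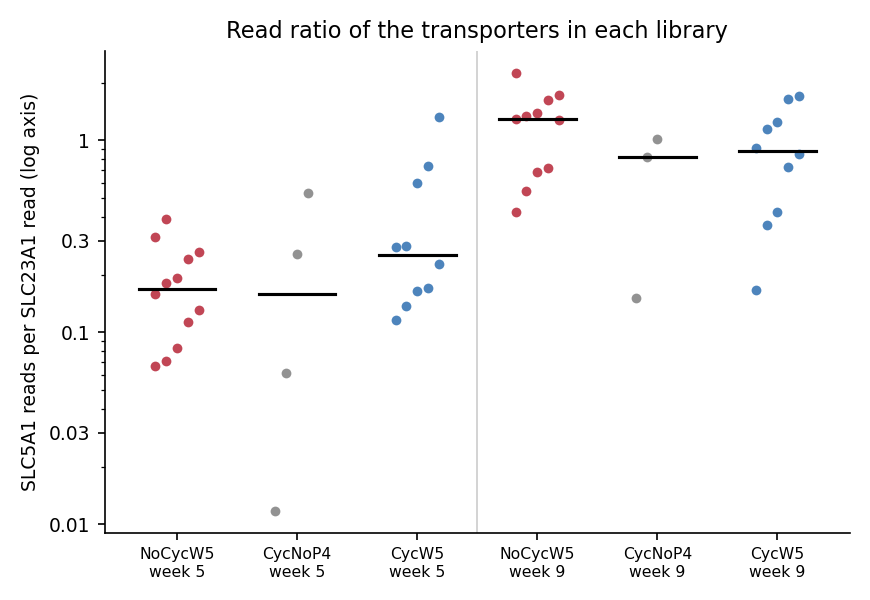
SLC5A1 reads divided by SLC23A1 reads in each library on a log axis, with a black line at the median of each of the 6 groups and a grey line between week 5 and week 9. All 11 NoCycW5 libraries of week 9 (0.426 or more) lie above all 12 of week 5 (0.392 or less), while the CycW5 libraries of the weeks overlap.

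Genes around these transporters were taken from 8 lists with 124 genes in all, of which 26 had an identifier and 25 were tested. Identifiers came only from tables of genes that the study had called, so the counts below are not independent evidence and are not to be read against the background as an enrichment. At week 5, 18 of these 25 genes were called, 15 higher and 3 lower in CycW5 cows (26.6% of all genes tested were called), and their median log2 fold change was 0.96 against -0.02 over all 15483 genes. From week 5 to week 9 in NoCycW5 cows, 19 were called, 16 higher and 3 lower (35.7% of all genes tested), with a median of 0.74 against -0.01.

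The sodium pump exports the sodium that enters with glucose and ascorbate. ATP1B2, its beta 2 subunit, was 8.08 to 28.96 CPM (median 11.7) in the NoCycW5 cows and 17.3 to 175 CPM (median 117) in the CycW5 cows at week 5. The fitted difference was log2 3.0 ± 0.43 SE (BH P = 2.41e-06), and between weeks it rose in NoCycW5 cows by 3.34 ± 0.43 (BH P = 6.45e-07). The common beta subunit ATP1B1 was higher in CycW5 than in NoCycW5 cows by 0.71 ± 0.22 at week 5 (BH P = 0.0148). Between weeks in NoCycW5 cows it rose by 1.08 ± 0.22. FXYD6, a small regulator of the pump, was lower in CycW5 cows by 0.99 on the log2 scale at week 5 (SE 0.15, BH P = 6.82e-06). It fell by 1.01 between weeks in NoCycW5 cows.

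Among partners and regulators, PDZK1, a scaffold of brush border transporters, was 10.2 to 45.1 CPM (median 13.7) in the NoCycW5 cows and 16.95 to 1019 CPM (median 268) in the CycW5 cows at week 5. Its log2 fold change was 4.45 ± 0.56 SE (BH P = 3.07e-07), and it was 3.71 ± 0.54 between weeks in the NoCycW5 cows (BH P = 2.71e-06). SGK2, a kinase of the family that acts on epithelial ion transport, was higher in CycW5 cows at week 5 by 2.88 ± 0.32 (BH P = 7.08e-08). It rose by 2.01 ± 0.31 between weeks in the NoCycW5 cows. Its relative SGK1 had a log2 fold change of 0.28 at week 5 (BH P = 0.261) and rose by 0.98 between weeks in the NoCycW5 cows (BH P = 6.08e-05). The GC box factor SP3 was lower in CycW5 cows at week 5 by 0.42 and fell by 0.27 between weeks in the NoCycW5 cows.

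The other ascorbate transporter, SLC23A2 or SVCT2, which most tissues use, had log2 fold changes of -0.14 ± 0.18 at week 5 (BH P = 0.592) and 0.05 ± 0.17 between weeks in the NoCycW5 cows (BH P = 0.843), and its median was 9.35 to 13.0 CPM in all 6 groups. Genes that use or recycle ascorbate were called in part. TXNRD1, the thioredoxin reductase that can reduce oxidized ascorbate, was higher in CycW5 cows by 1.76 ± 0.23 at week 5 (BH P = 7.14e-07). It rose by 0.90 between weeks in the NoCycW5 cows. CYBRD1, an ascorbate-dependent iron reductase, was higher by 1.73 ± 0.36 (BH P = 0.000455) and 2.28 ± 0.36 in the same comparisons. Cytochrome b5 (CYB5A) had small changes of 0.23 (BH P = 0.0426, lost in 15 of 22 fits that left out a library) and 0.41. Of the ascorbate-dependent prolyl hydroxylases, P4HA3 was higher by 2.05 ± 0.35 (BH P = 3.13e-05) and 2.0 ± 0.34 in these comparisons. P4HA1 had -0.30 at week 5 (BH P = 0.103) and fell by 0.49 between weeks in the NoCycW5 cows.

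On the glucose side, HKDC1, a hexokinase-like enzyme, was higher in CycW5 cows by 2.52 ± 0.61 at week 5 (BH P = 0.00211). Between weeks in the NoCycW5 cows it rose by 3.39 ± 0.62 (BH P = 5.98e-05). The week 5 value was 1.66 without library 70. It was 1.48 in limma-voom and 0.84 when libraries were weighted by quality, and both fits lost the call. Hexokinase HK2 was higher in CycW5 cows at week 5 (1.38 ± 0.42, BH P = 0.0133) and had 0.74 between weeks in the NoCycW5 cows (BH P = 0.158). PFKFB2, a regulator of glycolysis, was higher in CycW5 cows by 1.67 at week 5 and had 0.54 between weeks (BH P = 0.131). PFKFB3 had 0.10 at week 5 (BH P = 0.761) and rose by 0.55 between weeks. Of glycogen enzymes, the phosphorylase PYGL was higher by 1.06 and 0.73 and the synthase GYS1 by 0.61 and 0.57 in these comparisons (largest BH P = 0.000119). PGM2 was not called. SLC2A13, a proton-coupled inositol transporter of the GLUT family, was not called in either comparison, and SLC5A7, the choline transporter of the SLC5 family, was too low to be tested (0.114 CPM at most).

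**Figure D4:**
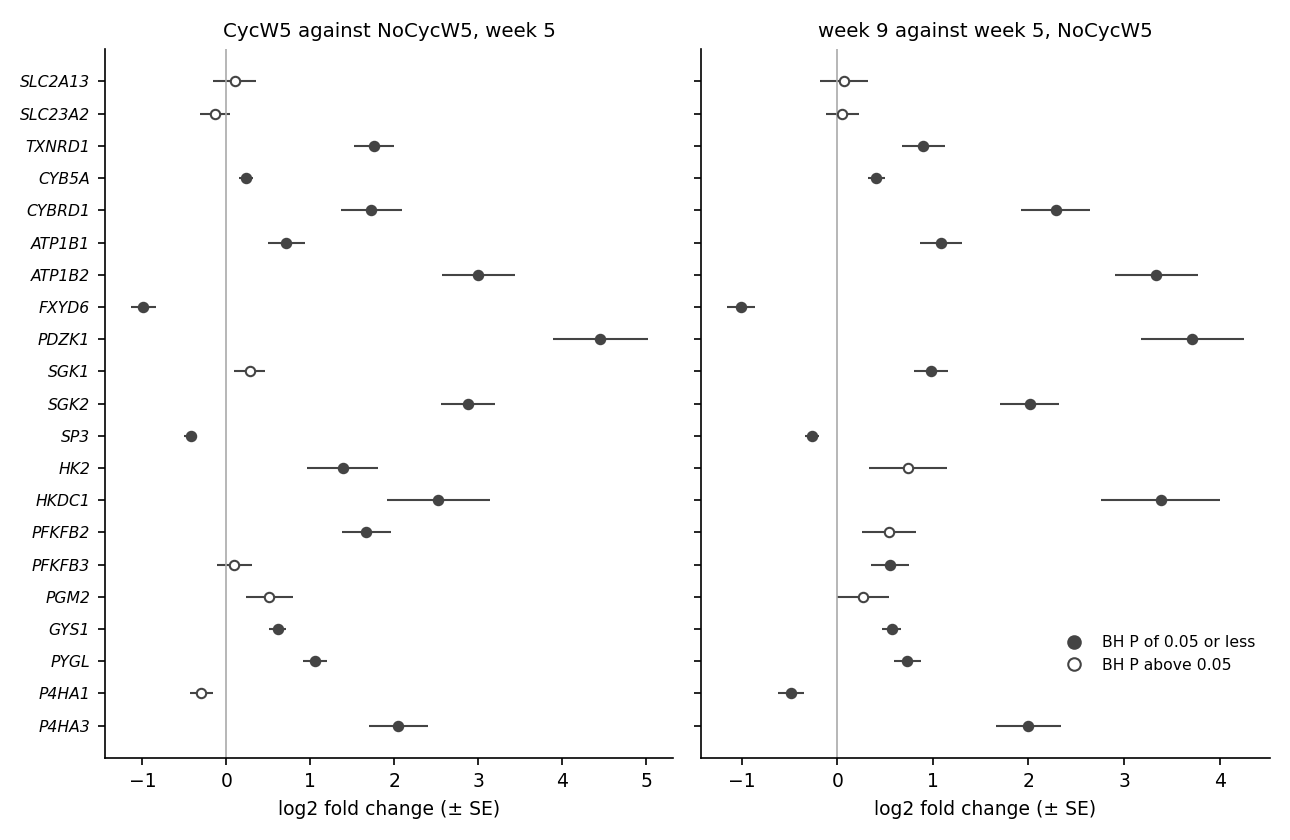
Log2 fold changes with SE of 21 of the 25 tested list genes between CycW5 and NoCycW5 cows at week 5 (left) and between weeks 9 and 5 in NoCycW5 cows (right); filled points have a BH P of 0.05 or less. ATP1B2, PDZK1, SGK2 and HKDC1 lie farthest to the right in the left panel, SLC23A2 and SLC2A13 lie near 0 in both, and both panels share the NoCycW5 libraries of week 5.

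At week 9, none of the 25 list genes was called between CycW5 and NoCycW5 cows by edgeR, DESeq2 or limma-voom. In edgeR, 2 of the 25 had an unadjusted P under 0.05, beside 992 of all 15483 genes, and 1 of all genes was called. Between weeks in the CycW5 cows none of the 25 was called by edgeR and 5 had an unadjusted P under 0.05, beside 7 and 2204 of all 15483 genes. In the weighted limma-voom fit, 9 of the 25 were called, beside 3181 of all genes. An interaction contrast, which compares the change over time of NoCycW5 cows with that of CycW5 cows, was called for 10 of the 25 genes, 8 of them with the larger value in NoCycW5 cows, in a contrast that called 7.82% of 15483 genes. For SLC5A1 and SLC23A1 the same difference was log2 4.66 ± 0.84 SE and 2.71 ± 0.48 SE.

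In the CycNoP4 cows at week 5, 3 of the 25 genes, SGK1 and HK2 among them, were called higher than in the NoCycW5 cows, beside 14.7% of all genes called in this comparison, and 0 of 25 without library 51. SGK1 was 569, 102, 69.2 and 99.1 CPM in libraries 51, 56, 58 and 64, and only library 51 lay above the 58.8 to 145 CPM of the NoCycW5 cows. Its log2 difference was 1.38 ± 0.33 (BH P = 0.0128) with library 51 and 0.16 ± 0.23 (BH P = 0.695) without it. HK2 was 27.7, 10.9, 3.58 and 1.89 CPM in the same libraries, against 0.886 to 7.42 CPM in the NoCycW5 cows. Its log2 difference was 1.94 ± 0.54 (BH P = 0.024) and 0.92 ± 0.58 (BH P = 0.343) without library 51, and the call was also lost without library 56. Against the CycW5 cows, 9 genes were called lower and 2 higher, beside 17.7% of all genes called. PDZK1 was lower by log2 -3.74 ± 0.77 (BH P = 0.00225), ATP1B2 by -3.41 ± 0.53 (BH P = 0.000317) and SGK2 by -2.69 ± 0.56 (BH P = 0.00243), and these calls held without any single library. SGK1 had 1.09 (BH P = 0.0308), which became -0.13 (BH P = 0.766) without library 51. Its call was also lost in limma-voom, both plain (0.56) and weighted (0.22). SP3 had 0.32 (BH P = 0.0272), a call lost without library 56, 58 or 64.

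Other sodium-coupled carriers outside these lists were added after the data were seen, and 8 were tested at week 5. They too had identifiers only through the study's calls. At week 5, 7 of the 8 were called higher in CycW5 cows, beside 15.2% of all genes. Solute carriers in general were similar: of 63 tested with a symbol, these included and the 2 members left out, 45 were called higher. SLC13A5, the sodium-citrate carrier, had 5.53 ± 0.72 (BH P = 4.85e-07), SLC1A1, a sodium-coupled carrier of acidic amino acids, 3.11 ± 0.49 (BH P = 8.16e-06), and SLC38A1, a sodium-coupled glutamine carrier, 1.78 ± 0.44 (BH P = 0.00253). SLC1A5, which exchanges neutral amino acids, had -0.57 (BH P = 0.14) and fell by 1.05 between weeks in NoCycW5 cows (BH P = 0.00385). In the CycNoP4 cows, 3 of 9 tested carriers were called against the NoCycW5 cows, all higher. Beside them, 14.7% of all genes and 11 of 64 solute carriers with a symbol were called. SLC13A5, SLC1A1 and SLC38A1 were above the NoCycW5 level by 2.68, 1.85 and 1.74 (largest BH P = 0.0387). Those of the 9 that were not called had values from -3.27 ± 1.71 SE (SLC6A18, BH P = 0.177) to 0.66 ± 0.45 SE (SLC28A3, BH P = 0.3). Of 16 fits that left out a library, the call was lost in 2 for SLC13A5, 9 for SLC1A1 and 4 for SLC38A1, and all 3 calls were lost without library 51 and without library 56. The calls of SLC13A5 and SLC1A1 were also lost in limma-voom.

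The 10 genes with the highest r to SLC5A1 over 50 libraries included MS4A8, SMPDL3B, IL6R, GOLGA5, LY6G6C, KSR2, HPGD, TJP3 and SHTN1, with r of 0.92 to 0.94 among 16119 genes. MS4A8, a membrane protein, kept the highest r (0.91) after the 6 group means were subtracted, and SMPDL3B, a lipid phosphodiesterase, came next (0.91). MS4A8 was 36.6 to 85.5 CPM in the NoCycW5 libraries of week 5 and 68.4 to 876 CPM in those of week 9. For SLC23A1 the 10 genes were SH3RF2, RTP3, ATP1B2, C1orf210, AGTPBP1, ENPP4, IL31RA, WIPF3, BICDL2 and SLC29A2, with r of 0.94 to 0.96. ATP1B2, the pump subunit above, ranked 3 with r = 0.95, and 0.88 after subtraction of group means. These lists had 0 genes in common, but KSR2 and TJP3 stood in both lists after subtraction of group means, and KSR2 and IL31RA in both over the 43 NoCycW5 and CycW5 libraries. SLC23A1 ranked 25 for SLC5A1 and SLC5A1 ranked 95 for SLC23A1 over 50 libraries, and 83 and 115 after subtraction.

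Markers of epithelium moved with the transporters. Of 13 epithelial markers listed, 5 had an identifier (EPCAM, KRT8, CLDN3, CLDN4 and CLDN7), through the study's calls, so their sum is not an independent measure of the epithelial share. None was at 0 in any library, and EPCAM had the highest median CPM of the 5 in every group, with no correction for length. At week 5 their summed level was 269 to 546 CPM (median 403) in the NoCycW5 cows and 489 to 1511 CPM (median 861) in the CycW5 cows, and at week 9 it was 454 to 1541 CPM (median 1160) and 373 to 1357 CPM (median 1113). The CycNoP4 libraries of week 5 had 1105, 825, 553 and 608 CPM (libraries 51, 56, 58 and 64), above all 12 NoCycW5 libraries of that week, with SLC23A1 still under 10 CPM in each. Those of week 9 had 1352, 816 and 888 CPM (libraries 79, 88 and 94), and libraries 57, 76, 91 and 87 had 627, 454, 539 and 651 CPM. Library 89 had 373 CPM, the lowest sum outside the NoCycW5 libraries of week 5. Between CycW5 and NoCycW5 cows at week 5, EPCAM was higher in CycW5 cows by log2 0.71 ± 0.24 (BH P = 0.0234). KRT8 was higher by 0.78 ± 0.12 (BH P = 4.71e-06) and CLDN7 by 1.95 ± 0.24 (BH P = 2.41e-07).

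Relative to this sum, the median log2 level of SLC5A1 was -8.59 in NoCycW5 and -6.42 in CycW5 cows at week 5, and -4.06 and -4.79 at week 9. The median for SLC23A1 was -5.99 and -4.60 at week 5 and -4.65 and -4.61 at week 9. In the CycNoP4 cows of week 5 these medians were -9.27 and -6.63, below those of the NoCycW5 cows. Of stromal markers only PDGFRA had an identifier, with a log2 fold change of -0.07 ± 0.16 at week 5 (BH P = 0.789). The endothelial markers CDH5 and VWF were lower in CycW5 cows by 0.43 (BH P = 0.0207) and 0.80 (BH P = 0.00218) at week 5. Markers of ciliated cells, smooth muscle, leukocytes and erythrocytes were not analysed here. The part of cell makeup in the transporter differences was not tested.

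**Figure D5:**
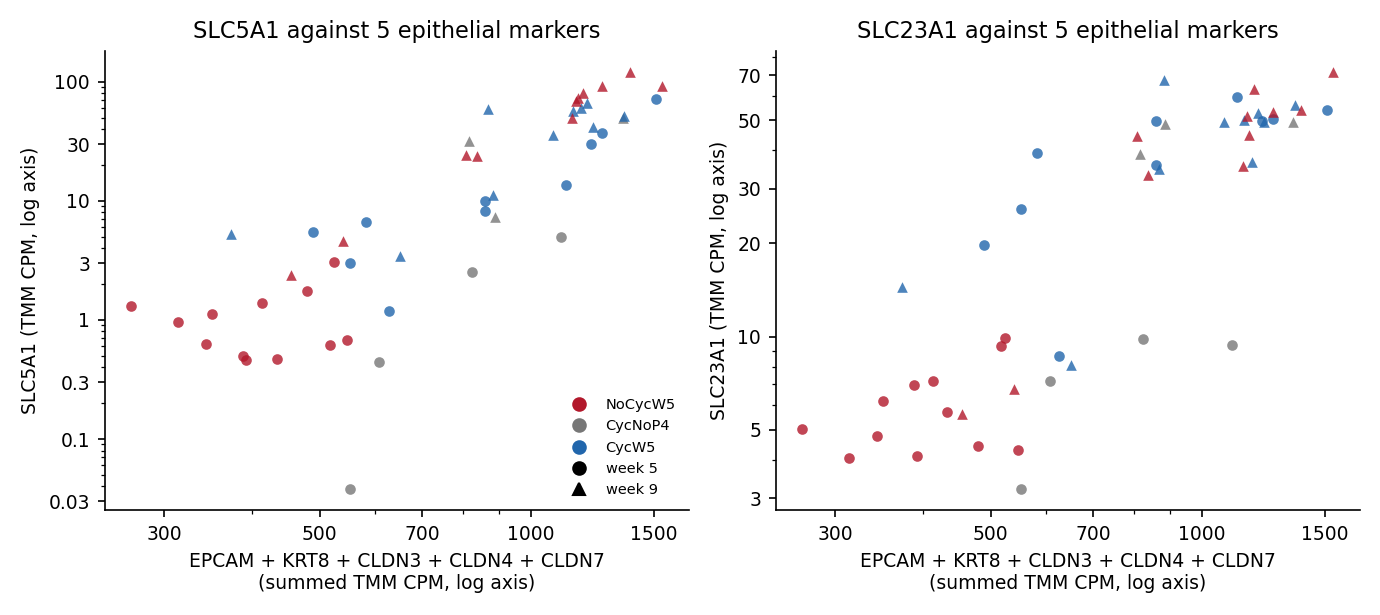
SLC5A1 (left) and SLC23A1 (right) against the summed level of 5 epithelial marker genes, all in TMM CPM on log axes, with a point for each of the 50 libraries; color gives the group, circles week 5 and triangles week 9. At similar marker sums the CycNoP4 libraries of week 5 lie below CycW5 libraries, as in library 51 with 1105 CPM of markers and 9.36 CPM of SLC23A1.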

How the data were processed

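RNA-seq of bovine endometrium was analysed in 50 libraries. The authors prepared stranded mRNA libraries, trimmed the single-end reads, aligned them to UMD3.1 with Hisat2 and deposited whole-number counts per Ensembl gene from FeatureCounts, without normalization. The submitters' processing notes also name StringTie and edgeR. Each of 50 count columns matched 1 labelled library.

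Counts of the 43 CycW5 and NoCycW5 libraries were scaled by TMM, filtered with filterByExpr and fitted as 4 group means with edgeR's robust quasi-likelihood test. CycNoP4 contrasts used the 26 week 5 libraries. Genes with a BH P of 0.05 or less were called. Levels are TMM CPM, and log2 CPM used a prior count of 2. R 4.3.3, edgeR 4.0.16, limma 3.58.1 and DESeq2 1.42.0 were used. The model of the study, with cow and microbiota components, could not be fitted, because libraries are not linked to cows. Repeated libraries were checked over 1225 pairs, and none was a repeat (mean chi-square per gene at least 27.9). The fits were also run on simulated independent libraries drawn with the fitted dispersions. This checks the code and cannot show how libraries that share a cow affect the fits.

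The members, the gene lists and the alternatives were chosen with earlier results of these data known. Genes were named by a rule: the members, up to 3 called genes in each direction per list in the week 5 comparison and in the NoCycW5 comparison between weeks, a fixed set of transporters, pump subunits and regulators, the markers, and the 10 genes with the highest r to each member. OXTR, ESR1 and the other sodium-coupled carriers fall outside that rule. Symbols were paired with identifiers through the study's supplementary tables (2729 genes, 2324 with a symbol); other genes of the lists, promoter motifs and protein sequences were not analysed here, and some genes that are in the counts are not reported here by name. Alternatives were DESeq2 size factors, no filter, a filter of at least 1 CPM in at least 10 libraries, DESeq2's Wald test, limma-voom (plain, and weighted by library quality), 1 fit of all 50 libraries, and each compared library left out. A fit without 4 libraries (57, 76, 87 and 91) was added after the data were seen.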

Additional observations from a re-analysis of the deposited data

Results flagged for a closer look

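In all, 9 sets of 4 to 10 libraries were screened for a library far from the others (SLC5A1, SLC23A1 and OXTR in 3 groups each). The cutoff flags about 1 in 20 sets by chance only where values are normally distributed, which was not examined. SLC5A1 and SLC23A1 were chosen on these same values, so the flags are descriptions and no test. In the CycW5 cows of week 5, SLC5A1 in library 70 was far above the others (72.2 CPM, a gap of 0.49 of the range), and OXTR in library 57 was far above the others (151 CPM, a gap of 0.69 of the range). These gaps were taken on linear CPM; on log2 CPM they were 0.16 and 0.33 of the range, too small to single out either library.

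An interaction contrast of week and cyclicity status in edgeR passed a BH P of 0.05 for 10 of 25 list genes and 3 of 8 added carriers. Beside them, 7.82% of all 15483 genes and 28 of 63 solute carriers with a symbol passed. These genes had identifiers only through the study's calls, so the counts are not independent evidence. As log2 change in NoCycW5 minus that in CycW5 cows, the values were 1.51 for TXNRD1, 2.79 for ATP1B2, -0.92 for FXYD6, 4.52 for PDZK1, 2.53 for SGK2, -0.35 for SP3, 3.30 for HKDC1, 0.57 for GYS1, 0.73 for PYGL and 2.24 for P4HA3. For the carriers they were 5.31 for SLC13A5, 2.98 for SLC1A1 and 2.05 for SLC38A1. In this fit the difference equals that between CycW5 and NoCycW5 cows at week 5 minus that at week 9.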

How the results depend on the processing

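The log2 fold changes of SLC5A1 and SLC23A1 kept their direction in 8 alternatives for the week 5 comparison (3.11 to 4.27 and 2.58 to 2.85) and for the NoCycW5 comparison between weeks (5.28 to 6.01 and 2.54 to 3.07). The number of calls depended on the fit, in the NoCycW5 comparison between weeks as well as in other comparisons, and the cause was not tested. Between CycW5 and NoCycW5 cows at week 9, the 1 call became 0 with no filter, the stricter filter, limma-voom without or with weights, a fit of all libraries and without libraries 57, 76, 87 and 91, and 12 in DESeq2. Between weeks in CycW5 cows, the 7 calls became 0 with DESeq2 size factors, no filter, the stricter filter or limma-voom, 235 in DESeq2, 3181 in limma-voom with weights, 20 in a fit of all libraries and 62 without the 4 libraries. Limma-voom with weights called 8562 genes between weeks in NoCycW5 cows (5533 in edgeR) and 3718 between CycNoP4 and NoCycW5 cows (2319). List genes called between CycNoP4 and NoCycW5 cows were 5 in DESeq2 and in limma-voom with weights (3 in edgeR), and 9 between weeks in CycW5 cows with weights (0). The r between SLC5A1 and SLC23A1 moved from 0.90 to 0.80 after subtraction of group means.

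With each compared library left out in turn, calls ranged from 0 to 5 (CycW5 against NoCycW5, week 9), 0 to 383 (weeks, CycW5; most without library 72), 132 to 4981 (CycNoP4 against NoCycW5) and 1451 to 4364 (CycNoP4 against CycW5). List genes called ranged from 0 to 2 (weeks, CycW5) and 0 to 9 (CycNoP4 against NoCycW5). The SGK1 log2 difference between CycNoP4 and CycW5 cows (1.09) ranged from -0.13 without library 51 to 1.41 without library 58. Of 30 alternatives at week 5, CYB5A lost its call in 17 and HKDC1 in 2. SLC5A1 rests on few reads in NoCycW5 and CycNoP4 libraries of week 5, and counting intervals cover counting error only. No paired analysis was possible because the labels do not link libraries to cows and the library numbers are not shared between groups; the order of the columns was not used to pair libraries.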
